A study of Homo sapiens with 27 samples.

Results

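Ribosome footprints of IMR90 fibroblasts made senescent with ionizing radiation were compared with those of cycling IMR90 fibroblasts. IMR90 is an established line of normal human lung fibroblasts. The 6 libraries, 3 irradiated and 3 cycling, were taken by their titles from the 14 Ribo-seq libraries among 27 in all. Irradiated cells had received a dose of 15 Gy and were collected 10 days later, and cycling cells were collected at 40 to 60% confluency with no treatment. All cells are labelled wild type and were grown in medium with 10% serum. The remaining libraries used here were 3 of cells held quiescent by contact inhibition and 3 of cells made senescent by 3 treatments with 50 µM etoposide, with the matched RNA-seq. A time of 10 days is given for the etoposide cells as well. A further 2 Ribo-seq libraries of cycling cells given 25 nM thapsigargin for 3 h only helped to estimate the spread. The labels give replicate numbers but do not say whether replicates came from separate cultures, so the p-values measure the spread between these libraries, which may be technical.

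Senescence is a lasting exit from the cell cycle that follows DNA damage, and irradiated fibroblasts are a long-used model of it. Damaged DNA activates p53, which induces the CDK inhibitor p21, the product of CDKN1A. Without CDK activity, RB-family proteins and the DREAM complex hold genes of DNA replication and mitosis silent. Senescent cells are also known for loss of lamin B1, for enlarged lysosomes and for a secretory phenotype of cytokines, proteases and matrix proteins. Ribosome profiling sequences the mRNA fragments that ribosomes shield from RNase. The footprint count of a gene therefore combines how much mRNA there is with how many ribosomes sit on it.

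Irradiated libraries were the shallower, with 2652013 to 5556293 footprint counts on genes against 9874835 to 14439646 in cycling libraries. Unmapped reads made up 24.4 to 34.7% of irradiated and 16.6 to 19.1% of cycling libraries. No pair of replicates was identical, and log2 CPM correlated between replicates at 0.977 to 0.990. Fibroblast markers summed to 36850 CPM (counts scaled to 1 common adjusted total over the genes tested) in cycling and 24100 CPM in irradiated cells. Of 12 such genes 2 were called higher and 7 lower. Of 9 epithelial markers 2 were tested and both were lower, with sums of 27.5 to 48.5 CPM in cycling and 10.9 to 15.1 CPM in irradiated libraries, while CDH1, KRT5, KRT14, SCGB1A1 and SFTPC were at 0. Endothelial markers summed to 16.9 to 30.1 and 27.7 to 29.8 CPM with PECAM1 and ERG at 0, and immune markers to 0.213 to 0.622 and 0.351 to 1.13 CPM with CD3E, CD68, LYZ and MS4A1 at 0. Neural markers summed to 24.8 to 29.4 and 40.7 to 47.1 CPM, with SNAP25 and MAP2 called higher. In bulk libraries, fewer cells of a type and less RNA per cell cannot be told apart. The first quiescent library stood apart from its group on the second principal component, at -63.3 against -20.2 and -6.44. It belongs to no group of the main comparison, but the fit estimates its spread over all states.

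Many genes changed after irradiation, and large falls outnumbered large rises. Of 11764 protein-coding genes tested, edgeR's quasi-likelihood test called 4684 at an adjusted p below 0.05 (39.8%). Footprints were higher for 2027 genes (17.2%) and lower for 2657 (22.6%). Changes of at least 2-fold were found in 620 of the genes that rose and 1793 of the genes that fell. The median log2 fold change over all genes was -0.006. CPM is relative to the library, so a change in total translation per cell was not measured. With upper quartile scaling the split turned to 2650 higher and 2365 lower. Thinning all libraries to the depth of the shallowest left 3687 calls.

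**Figure D1:**
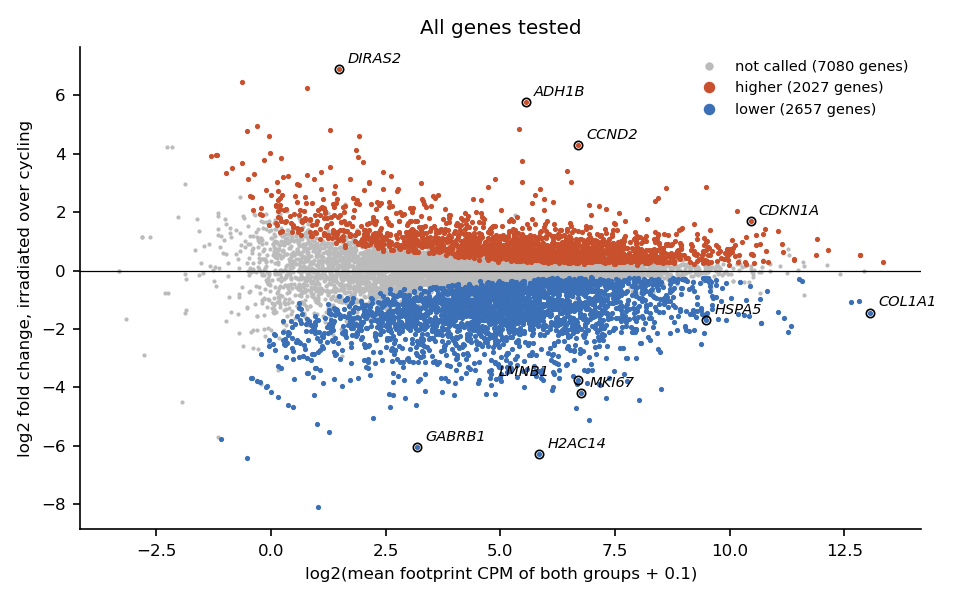
Each point is a gene, with its mean footprint level in both groups on the x axis (log2 CPM) and its log2 fold change, irradiated over cycling, on the y axis. The 2027 genes called higher and 2657 called lower are coloured, and the falls reach further than the rises among well-translated genes.

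The genes of mitosis fell together. All 56 tested members of a list of 57 were called lower, with a median log2 fold change of -3.24 against -0.006 for all genes. Their summed level was 6059 ± 211 CPM (SD, n = 3) in cycling cells and 794 ± 7.29 CPM in irradiated cells. MKI67, the proliferation antigen Ki-67 that coats mitotic chromosomes, had 206, 185 and 224 CPM in cycling libraries and 12.8, 12.1 and 7.995 CPM in irradiated ones. The groups were far apart and did not overlap (log2 fold change -4.21, SE 0.27, edgeR adjusted p = 9.43e-08). CCNB1, cyclin B1 and the member with the highest CPM, had 398, 403 and 358 CPM against 47.4, 52.1 and 45.1 CPM, an 8.03-fold fall (log2 fold change -3.0, SE 0.17, edgeR adjusted p = 2.41e-08). CENPA, the histone H3 variant that marks centromeres, had the largest fall of the list, from 13.4, 8.72 and 13.3 CPM to 0.527, 0.755 and 0.571 CPM (log2 fold change -4.28, SE 0.43, edgeR adjusted p = 4.78e-06). That irradiated level rests on 2 to 3 counts per library. By role, the medians were -3.47 for 16 kinases and cyclins, -3.16 for 14 kinetochore genes, -3.23 for 17 spindle genes and -2.96 for 9 chromosome genes.

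Promoters of mitosis genes are known to carry CCAAT boxes, bound by NF-Y, and a CHR element, bound by the DREAM and MMB complexes. RefSeq promoter windows (build GRCh38.p14, 250 bases before each start) were found for 48 of the 57 members. The letters TTTGAA of the CHR, on either strand, were in 28 of their 57 windows (49.1%) and in 13.3% of all 35116 windows. The letters CCAAT, on either strand, were in 40 of the 57 (70.2%) and in 32.0% of all windows. Windows of the endoplasmic reticulum genes described below had CCAAT in 34 of 48 (70.8%) and TTTGAA in 2 of 48 (4.2%). These matches are descriptions of sequence and not measured binding. The last 120 bases before the start are shown for 5 members, with TTTGAA and CCAAT or their reverse complements in capitals. They had the largest falls among the members considered that had both motifs there and a single window. Members on a chromosome excluded from this display were not considered. The stretches lie at chr10:128126424-128126543 (MKI67, minus strand), chr1:43358861-43358980 (CDC20, plus strand), chr2:112764610-112764729 (CKAP2L, minus strand), chr14:55191586-55191705 (DLGAP5, minus strand) and chr15:59105026-59105145 (CCNB2, plus strand).
MKI67: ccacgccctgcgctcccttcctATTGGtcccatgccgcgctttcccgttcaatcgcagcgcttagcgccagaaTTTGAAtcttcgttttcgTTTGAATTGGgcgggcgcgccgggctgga
CDC20: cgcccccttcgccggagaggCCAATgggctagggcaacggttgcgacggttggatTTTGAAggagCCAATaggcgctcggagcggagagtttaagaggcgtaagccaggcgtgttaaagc
CKAP2L: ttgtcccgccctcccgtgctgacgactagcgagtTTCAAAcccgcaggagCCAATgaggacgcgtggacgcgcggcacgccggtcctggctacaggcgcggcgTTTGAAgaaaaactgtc
DLGAP5: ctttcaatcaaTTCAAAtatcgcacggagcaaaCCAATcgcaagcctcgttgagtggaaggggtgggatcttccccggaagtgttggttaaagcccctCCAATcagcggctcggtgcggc
CCNB2: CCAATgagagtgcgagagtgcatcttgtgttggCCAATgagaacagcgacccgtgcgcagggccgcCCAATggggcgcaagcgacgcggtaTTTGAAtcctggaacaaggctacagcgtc
CDC20, the activator of the anaphase-promoting complex, went from 137, 127 and 137 CPM to 8.78, 6.04 and 9.71 CPM (log2 fold change -4.0, SE 0.22, edgeR adjusted p = 1.55e-08). CKAP2L, a spindle protein, had a log2 fold change of -3.76, DLGAP5, a spindle assembly factor, of -3.75, and CCNB2, cyclin B2, of -3.69.

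DNA replication genes fell too, but by less. Of 43 members 39 were called lower and none higher, with a median of -1.66. All 17 helicase and licensing genes were called lower (median -1.91), as were 16 of 19 polymerase and clamp genes (median -1.25) and 6 of 7 genes of nucleotide supply (median -1.63). TK1, thymidine kinase, fell most, from 142, 123 and 162 CPM to 11.9, 13.6 and 15.1 CPM (log2 fold change -3.4, SE 0.16, edgeR adjusted p = 3.92e-09). RRM1, the large subunit of ribonucleotide reductase and the member with the highest CPM, went from 406, 361 and 326 to 165, 166 and 137 CPM, a 2.34-fold fall. Neither range overlapped that of the other group. PCNA, the sliding clamp, was among the 4 members not called (log2 fold change -0.32, edgeR adjusted p = 0.065). PCNA was called lower with only the compared groups in the fit (adjusted p = 0.022) and with no filter on low counts (0.038).

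Among the regulators of the cell cycle, the members moved in opposite directions. Of 26 tested, 8 were called higher and 10 lower. CDKN1A had 741, 608 and 648 CPM in cycling and 1979, 2102 and 2335 CPM in irradiated libraries, a 3.21-fold rise with no overlap (log2 fold change 1.68, SE 0.12, edgeR adjusted p = 2.93e-07). CDKN2A, the locus of the CDK inhibitor p16 and of ARF, had 41.9, 19.97 and 21.6 CPM against 50.7, 61.6 and 53.97 CPM (log2 fold change 0.99, SE 0.29, edgeR adjusted p = 0.013). Gene counts cannot separate its transcripts. Its call was lost without the second cycling library (adjusted p = 0.052) and without the third (0.051). CDKN2B, the inhibitor p15, rose (1.54 on the log2 scale), while CDKN2C, p18, fell (-2.3). CCND2, cyclin D2, had 11.2, 10.6 and 8.004 CPM in cycling and 191, 206 and 193 CPM in irradiated libraries. That 19.7-fold rise was among the 8 largest called with separated groups (log2 fold change 4.3, SE 0.14, edgeR adjusted p = 4.47e-10). CCND1, cyclin D1, also rose (2.03), and CDK6 with it (1.1). E2F8, an atypical E2F repressor, fell most, from 4.25, 6.13 and 5.76 CPM to 0.527, 0 and 0.285 CPM, which are 0 to 3 counts per irradiated library (log2 fold change -3.97, SE 0.61, edgeR adjusted p = 1.96e-04). FOXM1 and MYBL2, activators of mitosis genes, had log2 fold changes of -3.42 and -3.73.

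**Figure D2:**
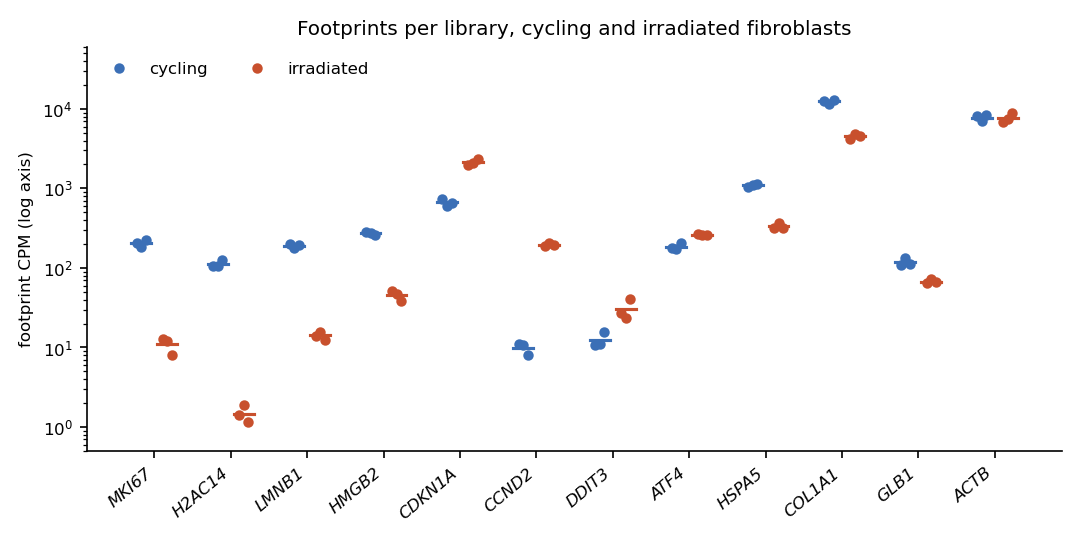
Points give the footprint CPM of 12 genes in each of the 3 cycling and 3 irradiated libraries on a log axis, and lines give the group means. The groups are separated for all genes shown but ACTB, and MKI67, H2AC14, LMNB1 and HMGB2 are lower after irradiation while CDKN1A and CCND2 are higher.

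Known p53 targets rose more often than they fell. Of 30 tested, 16 were called higher and 3 lower, and the median log2 fold change was 0.74. GADD45A, a growth arrest gene, rose most, from 64.6, 49.5 and 62.5 CPM to 246, 283 and 237 CPM (log2 fold change 2.12, SE 0.12, edgeR adjusted p = 2.76e-08). MDM2, the ubiquitin ligase that restrains p53, had a log2 fold change of 1.32, and TP53INP1 one of 1.59. The members that fell included TNFRSF10B (-1.23), a death receptor. In the BCL2 family, 6 of 16 tested members were called higher and none lower (median 0.52). BNIP3L, a mitophagy receptor, went from 206, 249 and 212 to 559.5, 568 and 463 CPM (log2 fold change 1.25, SE 0.15, edgeR adjusted p = 2.20e-05). BCL2L1, which encodes the survival protein BCL-XL, rose (0.98).

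All replication-dependent histone genes that were tested fell, 42 of 45 members, with a median of -3.14. Their sum went from 12660 ± 1235 CPM to 3258 ± 169 CPM. H2AC14 had 106, 107 and 126 CPM in cycling and 1.41, 1.89 and 1.14 CPM in irradiated libraries, the largest fall of the 8 lowest genes with separated groups (log2 fold change -6.29, SE 0.23, edgeR adjusted p = 6.38e-10). H2BC14 (-5.13), H3C12 (-4.72) and the linker histone H1-5 (-4.44) were also among those 8. H2AC6, the member with the highest CPM, fell least, from 1232, 1100 and 979 to 731, 756 and 678 CPM (log2 fold change -0.61, SE 0.14, edgeR adjusted p = 0.0036). Histone genes are near-identical copies, reads that map to several places are in no gene's count, and the single-gene values are therefore uncertain.

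Nuclear lamina and chromatin genes had no member called higher. Of 26 tested 20 were called lower, with a median of -1.21. LMNB1, lamin B1, had 202, 179.7 and 193 CPM in cycling and 14.1, 15.9 and 12.6 CPM in irradiated libraries, a 13.6-fold fall (log2 fold change -3.76, SE 0.17, edgeR adjusted p = 3.01e-09). LBR, the lamin B receptor, fell by a like amount (-3.45). LMNA, which encodes lamins A and C and was the member with the highest CPM, had 1872, 1453 and 1574 CPM against 1446, 1602 and 1657 CPM. Those ranges overlapped and LMNA was not called (-0.06). With upper quartile scaling its sign turned (0.04). HMGB2, a chromatin protein whose loss is a known mark of senescence, went from 285, 276 and 259.6 CPM to 51.8, 47.2 and 37.98 CPM (log2 fold change -2.58, SE 0.17, edgeR adjusted p = 1.36e-07). The histone methyltransferase gene EZH2 fell (-2.42), as did DNMT1 (-1.15), the maintenance DNA methyltransferase.

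The 8 largest rises with separated groups were those of DIRAS2, ADH1B, FMO2, C3, CCND2, TNFSF18, A2M and MYH11. DIRAS2, a RAS-family GTPase, had 1 count in all cycling libraries together and 64 in the irradiated ones. The ratio of these pooled counts, scaled by library totals, was 187.7 (95% counting interval 32.5 to 7530). ADH1B, an alcohol dehydrogenase, had 0.933, 2.81 and 0.9604 CPM in cycling and 107, 63.5 and 106 CPM in irradiated libraries (log2 fold change 5.78, SE 0.50, edgeR adjusted p = 2.86e-06). FMO2, a flavin monooxygenase of the lung, had 2.69, 2.596 and 3.201 CPM against 102, 75.5 and 66.8 CPM (log2 fold change 4.86, SE 0.22, edgeR adjusted p = 8.41e-09). C3, the central complement component, had 0.104, 0.433 and 0.213 CPM against 6.496, 10.9 and 3.997 CPM, with 1 to 6 counts per cycling library (log2 fold change 4.59, SE 1.13, edgeR adjusted p = 0.0055). TNFSF18, a TNF-family ligand, rose by 4.12 and A2M, a protease inhibitor, by 3.89, from at most 7 and 9 counts per cycling library. MYH11, the smooth muscle myosin heavy chain, had 6.74, 5.84 and 5.66 CPM against 89.01, 89.2 and 68.5 CPM (log2 fold change 3.76, SE 0.47, edgeR adjusted p = 4.28e-05).

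Besides histone genes, the 8 largest falls included 4 genes with few counts after irradiation. GABRB1, a GABA receptor subunit, had 589 counts in cycling libraries and 3 in irradiated ones, a ratio of 66.9 (95% counting interval 22.8 to 325.5). MXD3, a MAX partner that represses MYC targets, had 283 and 3 counts, a ratio of 32.2 (10.9 to 156.9). GRPR, the gastrin-releasing peptide receptor, went from 15.1, 8.08 and 10.99 CPM to 0.351, 0.755 and 0.285 CPM (log2 fold change -4.69, SE 0.58, edgeR adjusted p = 3.56e-05). EMP2, a tetraspan membrane protein, went from 16.4, 13.7 and 20.6 CPM to 0.527, 0.378 and 1.14 CPM (log2 fold change -4.61, SE 0.59, edgeR adjusted p = 4.37e-05).

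Genes of protein folding in the endoplasmic reticulum (ER) fell as a group. Of 40 tested members of the ER folding and unfolded protein response list, 34 were called lower and 2 higher, with a median of -1.38. The sum went from 14120 ± 758 CPM to 5773 ± 278 CPM. HSPA5, the ER chaperone BiP, had 1032, 1099 and 1139 CPM in cycling and 319.5, 369 and 320.1 CPM in irradiated libraries, a 3.24-fold fall (log2 fold change -1.7, SE 0.28, edgeR adjusted p = 3.15e-04). CALR, calreticulin and the member with the highest CPM, had 2352, 2462 and 2838 CPM against 731, 746 and 718 CPM (log2 fold change -1.8, SE 0.29, edgeR adjusted p = 2.98e-04). DNAJB11, a co-chaperone of BiP, fell most (-2.12). Of 16 chaperones and folding enzymes 15 were called lower, as were 9 of 11 sensors and degradation factors and 10 of 13 translocation factors. EIF2AK3 and ATF6, the genes of the sensors PERK and ATF6, fell (-1.31 and -1.23).

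The ER stress element is a known binding arrangement for ATF6 with NF-Y, the letters CCAAT, then 9 bases, then CCACG. It was found on either strand in 8 of 48 promoter windows of 37 matched members (16.7%) and in 0.074% of all windows. The list covers the unfolded protein response, so an excess of this element could follow from how the list was drawn. These matches are descriptions of sequence and not measured binding. The last 120 bases before the start are shown for 3 members, with the element in capitals. They had the largest falls among the members considered that had the element there and a single window. Members on a chromosome excluded from this display were not considered. The stretches lie at chr9:125241344-125241463 (HSPA5, minus strand), chr12:103930290-103930409 (HSP90B1, plus strand) and chr22:49918514-49918633 (CRELD2, plus strand).
HSPA5: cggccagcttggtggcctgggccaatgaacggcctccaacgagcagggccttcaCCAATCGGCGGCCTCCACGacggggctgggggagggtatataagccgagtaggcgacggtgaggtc
HSP90B1: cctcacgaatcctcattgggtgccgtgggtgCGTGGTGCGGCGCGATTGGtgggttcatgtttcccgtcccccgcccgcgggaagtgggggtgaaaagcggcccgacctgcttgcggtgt
CRELD2: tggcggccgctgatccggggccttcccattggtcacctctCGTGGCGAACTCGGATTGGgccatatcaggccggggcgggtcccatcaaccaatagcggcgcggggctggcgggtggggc
HSP90B1, the ER chaperone GRP94, had 919, 1206 and 1053 CPM in cycling and 337, 409 and 310.1 CPM in irradiated libraries (log2 fold change -1.59, SE 0.30, edgeR adjusted p = 9.99e-04). CRELD2, a secreted ER stress gene, went from 51.9, 49.3 and 56.6 to 22.6, 22.7 and 15.1 CPM (log2 fold change -1.38, SE 0.33, edgeR adjusted p = 0.0048).

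Within the translocation genes, the direction differed between members. SSR1 (-2.11), SSR2 (-2.0), SEC61A1 (-1.92) and SRPRB (-1.87), all membrane proteins of the translocon or the signal recognition particle receptor, fell. SEC61B, a small tail-anchored subunit, rose from 162, 176 and 212 CPM to 303, 296 and 360.3 CPM (log2 fold change 0.8, SE 0.14, edgeR adjusted p = 4.14e-04). SRP14, a cytosolic subunit of the signal recognition particle, rose as well (0.57). These members were singled out after their values were seen.

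Collagens and matrix genes, the main secretory product of fibroblasts, were lower after irradiation. Of 50 members 33 were called lower and 3 higher, with a median of -1.17, and the sum went from 61950 ± 3767 CPM to 27860 ± 2222 CPM. COL1A1, the alpha 1 chain of collagen I, had 12740, 11660 and 12870 CPM in cycling and 4208, 4882 and 4615 CPM in irradiated libraries (log2 fold change -1.44, SE 0.28, edgeR adjusted p = 0.001). PCOLCE, an enhancer of procollagen cleavage, fell most, from 428, 452 and 482 to 80.1, 82.3 and 82.8 CPM (log2 fold change -2.47, SE 0.27, edgeR adjusted p = 1.06e-05). Of the modifying enzymes, 11 of 14 were called lower and none higher, among them SERPINH1 (-2.13), the collagen chaperone HSP47. The members that rose were the small proteoglycans FMOD (2.45) and LUM (0.98) and the fibril-associated collagen gene COL14A1 (2.37), and the call of LUM was lost without the first cycling library (adjusted p = 0.054). Without the first irradiated library 22 members were called lower, and without the first quiescent library, whose group is not compared, 39 were.

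Lysosomal genes were mostly lower or not called. Of 54 members 21 were called lower and 5 higher, with a median of -0.70. GLB1, the gene of senescence-associated beta-galactosidase, had 110.2, 132 and 112 CPM in cycling and 64.3, 72.2 and 65.96 CPM in irradiated libraries, a fall with no overlap (log2 fold change -0.82, SE 0.17, edgeR adjusted p = 0.0021). PPT1, a thioesterase, fell most, from 65.3, 66.5 and 75.9 to 12.6, 15.5 and 11.1 CPM (log2 fold change -2.42, SE 0.30, edgeR adjusted p = 4.03e-05). PSAP, prosaposin and the member with the highest CPM, had 1084, 1293 and 1247 CPM against 918, 1055 and 835 CPM and was not called (adjusted p = 0.24), except in fits without the first quiescent library (0.0078) and on the compared groups alone (0.0093). None of 35 enzymes was called higher and 13 were called lower. ATP6V1A, the catalytic subunit of the proton pump on its cytosolic side, rose from 263, 279 and 248 CPM to 685, 729 and 655 CPM (log2 fold change 1.39, SE 0.09, edgeR adjusted p = 4.70e-08). The other members called higher were ATP6V1H (0.79), ATP6V0D1 (0.78) and the transcription factors TFE3 (0.62) and MITF (0.98). Without the first quiescent library, or with only the compared groups in the fit, 33 members were called lower and 6 higher.

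MHC class I genes and cholesterol synthesis genes were likewise mostly lower. In the MHC class I list 10 of 15 members were called lower and none higher (median -1.24). B2M, the invariant light chain, went from 1686, 1989 and 1982 CPM to 715, 701 and 545 CPM (log2 fold change -1.53, SE 0.23, edgeR adjusted p = 1.95e-04), and ERAP2, an ER peptidase that trims peptides, from 21.97, 23.4 and 23.8 to 5.44, 6.8 and 4.57 CPM (-2.06). Of 25 cholesterol genes 14 were called lower and 3 higher (median -1.20), with 1 higher when the first or second cycling or the first or second irradiated library was left out and 6 higher with upper quartile scaling, RLE scaling, DESeq2 or only the compared groups. EBP, a sterol isomerase of the ER membrane, fell most, from 15.96, 13.4 and 18.2 to 2.63, 0.755 and 2.57 CPM (log2 fold change -2.88, SE 0.41, edgeR adjusted p = 1.00e-04). FDFT1, squalene synthase and the member with the highest CPM, had 633, 657 and 603 CPM against 560.2, 594 and 505 CPM and was not called (-0.19).

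**Figure D3:**
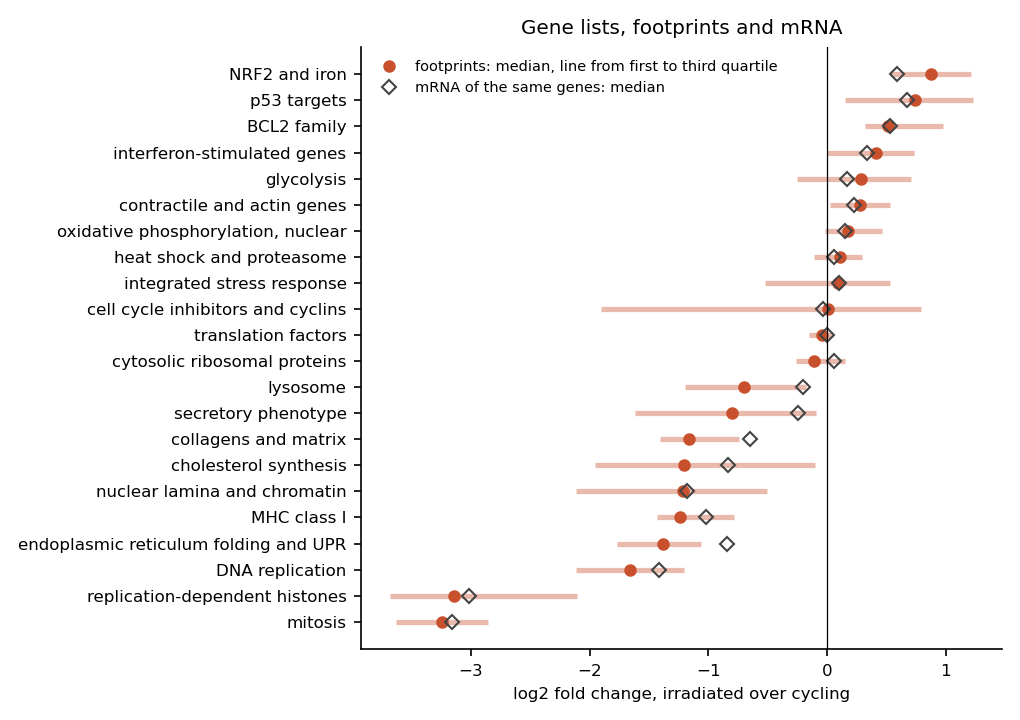
For 22 gene lists, filled circles give the median log2 fold change of footprints, irradiated over cycling, with a line from the first to the third quartile of the members, and open diamonds give the median for mRNA of the same genes. The ER, collagen, secretory and lysosome lists have footprint medians (-1.38, -1.17, -0.80 and -0.70) below those of their mRNA, and the mitosis medians nearly coincide.

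The medians of ER, matrix and lysosome genes lay lower in footprints than in mRNA, of which cycling cells have 2 libraries. For the ER list the median log2 fold change was -1.38 in footprints and -0.84 in mRNA. It was -1.17 and -0.65 for collagens and matrix, -0.70 and -0.20 for the lysosome, and -0.80 and -0.24 for the secretory phenotype, whose footprint median was -0.38 without the second cycling library. For mitosis it was -3.24 and -3.16, and for p53 targets 0.74 and 0.68. The difference between the change of footprints and of mRNA, the change in translational efficiency, was tested as an interaction over all 27 libraries. That test called 6 of 11713 genes (0.0512%), and the ER, collagen and lysosome lists had medians of -0.38, -0.35 and -0.30 against 0.069 for all genes.

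The number of calls for translational efficiency depended on which libraries shared the estimate of the spread. A fit of irradiated and cycling libraries alone called 50 genes higher (0.427%) and 678 lower (5.79%), and DESeq2 over all libraries called 32. In the fit of these states alone, 16 of 40 ER members were lower and none higher, and 38 of the 40 had a negative estimate. All 50 collagen and matrix members had a negative estimate, with 10 called lower, and 49 of 54 lysosome members did, with 9 called lower. Of 56 mitosis genes 42 had a negative estimate and 1 was called lower, with a median of -0.19. Over all genes tested, 6928 of 11713 had a negative estimate, and the median was -0.060. The largest fall there was SLC8A1, the sodium-calcium exchanger of the plasma membrane. Its mean footprints went from 50.8 to 12.7 CPM while its mRNA stood at 101.0 and 102.6 CPM (log2 -1.99, SE 0.17, edgeR adjusted p = 6.55e-07; 0.195 in the fit of all libraries). SSR2, a translocon-associated protein, had a log2 change in efficiency of -1.18 and NPC1, the lysosomal cholesterol exporter, of -1.35. CCL2, a chemokine, had -1.39, with an mRNA rise of 1.13 and a footprint change of -0.26. The genes of this fit were named after their values were seen, as the changes of largest size or from a list.

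Of the 6 genes called in the fit of all libraries, 5 were higher. QRICH1, a transcriptional regulator, had overlapping footprint levels of 109, 119.8 and 114 CPM in cycling and 126, 117 and 128 CPM in irradiated libraries. Its mRNA fell by 1.49 on the log2 scale. That mRNA was low for its footprints, with means of 14.7 CPM in cycling and 5.21 CPM in irradiated libraries. The ribosomal protein genes RPL7 and RPL7A had log2 changes in efficiency of 1.5 and 1.2. Both had few footprints for their mRNA, 5.17 and 41.7 CPM in cycling libraries against 1583 and 2179 CPM of mRNA, and both have near-identical copies elsewhere in the genome. TOR1AIP1, an inner nuclear membrane protein, fell from 74.3, 82.3 and 83.9 CPM to 43.4, 45.3 and 39.4 CPM with an mRNA change of 0.34. Leaving out any single library of either kind left 1 to 3 calls, except that 7 were left without the third cycling and 4 without the third irradiated Ribo-seq library.

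**Figure D4:**
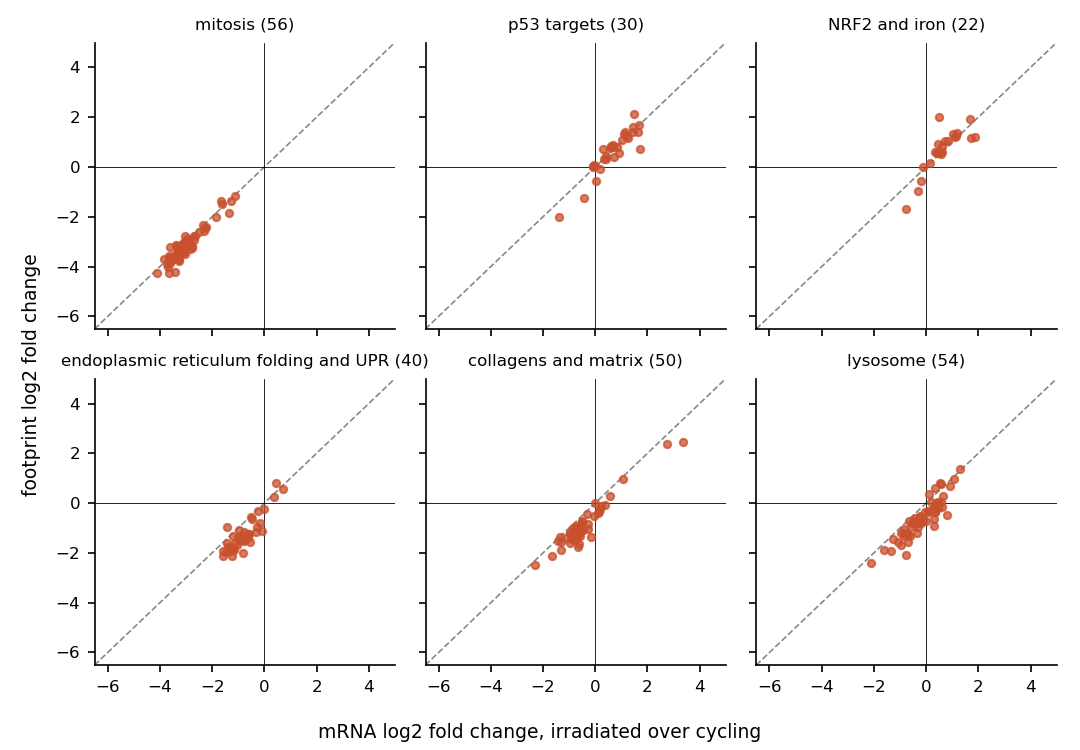
Each point is a gene of the named list, with its mRNA log2 fold change, irradiated over cycling, on the x axis and its footprint log2 fold change on the y axis; the dashed line marks equal change. Mitosis and p53 genes lie near the line, while most ER, collagen and lysosome genes lie below it.

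The machinery of translation itself moved little. Of 76 cytosolic ribosomal protein genes tested, 5 were called higher and 11 lower, with a median of -0.11, and the sum went from 23050 ± 1795 CPM to 21380 ± 928 CPM. The 11 became 5 to 7 when any library but the second cycling one was left out, and without the third cycling one 8 were higher and the median was 0.062. With upper quartile scaling 5 were lower, and with only the compared groups 11 were higher. Reads shared by near-identical copies are in no count, so single members are uncertain. RPS6, whose protein is phosphorylated by S6 kinase, fell most among those with called falls, from 563, 522 and 519 CPM to 337, 367 and 356 CPM (log2 fold change -0.6, SE 0.09, edgeR adjusted p = 1.69e-04). RPS19, the one with the highest CPM, had 1398, 1083 and 1173 CPM against 1436, 1448 and 1229 CPM and was not called (0.17). Of 45 translation factor genes 6 were called higher and 6 lower, with a median of -0.04. The median turned to 0.054 with upper quartile scaling, 0.010 with RLE scaling and 0.008 with DESeq2. The shares called higher and lower were 6.58% and 14.5% for ribosomal proteins and 13.3% each for translation factors. Both lists lay below the 17.2% and 22.6% of all genes tested. EIF4A2, a helicase paralog, rose from 148, 179 and 162 CPM to 338, 360.0 and 312 CPM (log2 fold change 1.05, SE 0.10, edgeR adjusted p = 3.94e-06). EIF4E, the cap-binding protein, fell from 34.1, 38.6 and 38.1 to 19.5, 24.6 and 18.9 CPM (log2 fold change -0.83, SE 0.17, edgeR adjusted p = 0.0017).

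The integrated stress response list was split. Of 17 regulators 8 were called higher and 2 lower, and of 26 genes of amino acid supply and tRNA synthetases 8 were called higher and 12 lower. ATF4, the transcription factor of this response, had 179, 174 and 205 CPM in cycling and 264, 256 and 257 CPM in irradiated libraries. That was a 1.39-fold rise (log2 fold change 0.48, SE 0.12, edgeR adjusted p = 0.0064). Its mRNA log2 fold change was 0.11, and its change in translational efficiency was not called in the fit of all libraries (0.49, edgeR adjusted p = 0.48). In the fit of irradiated and cycling libraries alone, none of the list's 43 members was called higher in efficiency. There 7 were called lower, and over all genes 0.427% were higher and 5.79% lower. DDIT3, the factor CHOP, went from 10.7, 11.2 and 15.7 to 26.9, 23.8 and 40.8 CPM (log2 fold change 1.29, SE 0.23, edgeR adjusted p = 5.61e-04), with an mRNA log2 fold change of 1.23. ATF3 rose most, from 7.57, 6.85 and 6.83 to 20.2, 22.7 and 23.98 CPM (log2 fold change 1.65, SE 0.19, edgeR adjusted p = 1.89e-05). PPP1R15A, the stress-induced phosphatase subunit GADD34, went from 56.6, 39.9 and 67.02 to 70.05, 84.6 and 91.7 CPM (log2 fold change 0.59, SE 0.20, edgeR adjusted p = 0.030). It no longer passed the test without the first (adjusted p = 0.058) or second (0.10) cycling library and without the second (0.079) or the third (0.096) irradiated one.

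Amino acid transporters named here fell, and tRNA synthetase genes moved both ways. SLC7A5, the large neutral amino acid transporter, went from 172, 155 and 194 to 17.7, 20.4 and 24.8 CPM (log2 fold change -3.06, SE 0.38, edgeR adjusted p = 3.86e-05). SLC38A2, the member with the highest CPM, went from 2853, 2602 and 2198 CPM to 728, 800.5 and 663 CPM (log2 fold change -1.8, SE 0.23, edgeR adjusted p = 4.62e-05). SLC7A1 (-2.87), SLC3A2 (-1.57), SLC1A5 (-1.4) and SLC7A11 (-0.98) fell as well. The tRNA synthetase genes AARS1 (0.58) and WARS1 (0.77) rose, as did ASNS, asparagine synthetase (1.48), whose call was lost without the first irradiated library (adjusted p = 0.050). Of 18 cytosolic synthetase genes tested, gathered by symbol, 6 were called higher and 3 lower (median 0.10). QARS1 (-0.71), KARS1 (-0.34) and MARS1 (-0.32) were the 3 lower. The call of MARS1 was lost without any single library but the second irradiated one (adjusted p = 0.050 to 0.11), and that of KARS1 without the second cycling (0.056) or the third irradiated library (0.058). With upper quartile scaling neither passed (0.074 and 0.051). The sets of transporters and synthetases were drawn after the values were seen.

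Genes of the NRF2 antioxidant response and of iron storage rose. Of 22 tested 17 were called higher and 2 lower, with a median of 0.88, and the sum went from 9106 ± 35.7 CPM to 16830 ± 68.8 CPM. SQSTM1, the autophagy receptor p62, went from 1190, 1194 and 1175 CPM to 3015, 3154 and 2985 CPM, a 2.57-fold rise (edgeR adjusted p = 5.15e-08). The ferritin genes FTH1 (1.21) and FTL (1.17) rose, as did HMOX1 (1.92), heme oxygenase 1. SRXN1, sulfiredoxin, rose most, from 4.35, 1.88 and 1.92 to 8.78, 12.5 and 11.99 CPM (log2 fold change 2.02, SE 0.46, edgeR adjusted p = 0.0034). The members that fell were MT1E (-1.7), a metallothionein, and SLC7A11, the cystine transporter.

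In glycolysis, 11 of 23 members were called higher and 5 lower (median 0.29). PKM, pyruvate kinase and the member with the highest CPM, went from 6886, 5738 and 5488 CPM to 8686, 9024 and 8372 CPM (log2 fold change 0.53, SE 0.09, edgeR adjusted p = 4.30e-04). HK2, a hexokinase, rose most, from 16.5, 12.6 and 14.6 to 36.7, 49.9 and 40.8 CPM (log2 fold change 1.54, SE 0.16, edgeR adjusted p = 9.41e-06). The 3 membrane transporters of the list all fell. SLC2A3, the glucose transporter GLUT3, went from 136, 134 and 112 to 30.7, 29.8 and 27.1 CPM (log2 fold change -2.12, SE 0.30, edgeR adjusted p = 1.00e-04), and SLC16A3, a lactate exporter, and SLC2A1, GLUT1, had -1.74 and -1.53. LDHA (-0.53) and ENO1 (-0.35) were the other members called lower.

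Respiratory chain genes differed by genome. Of 46 nuclear members tested 15 were called higher and 5 lower (median 0.18), with 2 or 3 lower when any library but the first cycling one was left out and 3 with upper quartile scaling. COX8A, a cytochrome c oxidase subunit, rose most, from 133, 78.4 and 105 to 174, 167 and 237 CPM (log2 fold change 0.87, SE 0.22, edgeR adjusted p = 0.0056). The 13 protein genes of the mitochondrial genome, which mitochondrial ribosomes translate, were fitted with all gene types, since the RefSeq table did not mark them as protein-coding. All 13 estimates were below 0, 7 were called lower, and the median was -1.19. Their sum was 915, 1241 and 1138 CPM in cycling libraries and 633, 451 and 445 CPM in irradiated ones, with no overlap. These sums are scaled to the total over all gene types and are not on the scale of the other CPM here. MT-CO2, a cytochrome c oxidase subunit, had a log2 fold change of -1.33 (SE 0.39, edgeR adjusted p = 0.017).

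Contractile and actin genes, interferon genes and heat shock genes had called members in both directions. Of all genes tested, 17.2% were called higher and 22.6% lower. The shares were 18.75% and 15.62% for interferon genes and 20.0% and 17.5% for heat shock and proteasome genes, near those of all genes. For contractile genes they were 36.0% and 8.0%. Of 25 contractile genes 9 were called higher and 2 lower (median 0.28), with 1 lower without the third cycling or the third irradiated library and 14 higher with only the compared groups. MYL9, a myosin light chain, rose most (0.91), VCL, vinculin, fell most (-0.72), and ACTB, beta-actin, had 8076, 6979 and 8322 CPM against 6798, 7423 and 8994 CPM (-0.01, not called). The sign for ACTB turned with upper quartile scaling (0.085), RLE scaling (0.041) and DESeq2 (0.041). Of 32 interferon-stimulated genes tested, from 40, 6 were called higher and 5 lower (median 0.41), with 3 lower without the third irradiated library. IFIT2 rose most among those above 5 CPM (1.73), and OAS3 fell (-1.21). Of 40 heat shock and proteasome genes 8 were called higher and 7 lower (median 0.11), with 4 lower without the second cycling or the first irradiated library. With upper quartile scaling 13 were higher and 4 lower, and 13 were higher with DESeq2 and with only the compared groups. CRYAB, a small heat shock protein, went from 16.8, 16.2 and 18.4 to 80.8, 79.7 and 96.5 CPM (log2 fold change 2.32, SE 0.19, edgeR adjusted p = 9.89e-07), and HSPD1, a mitochondrial chaperone, fell (-0.56).

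The secretory phenotype genes were not raised as a group. Of 47 tested, 3 were called higher (6.38%) and 14 lower (29.8%), with a median of -0.80. Over all genes tested, these shares were 17.2% and 22.6%. Without the second cycling library the median was -0.38. The sum of cytokines and chemokines, a small part of the list, was 192 ± 31.2 CPM in cycling and 99.4 ± 12.7 CPM in irradiated libraries. Proteases and inhibitors summed to 5814 ± 447 and 3424 ± 114 CPM. The sum of growth factors and binding proteins was higher in irradiated libraries, at 4392 ± 10.9 CPM against 3192 ± 248 CPM. Of those 20 genes 2 were called higher and 6 lower. IL6 had 4.25, 11.1 and 5.02 CPM against 11.6, 9.82 and 17.1 CPM, ranges that overlapped, and was not called (0.89, adjusted p = 0.21), while its mRNA rose by 1.43. CXCL8 had 2.28, 23.4 and 3.095 CPM against 2.81, 4.16 and 3.14 CPM and was not called (-1.64, adjusted p = 0.19). Its negative value rests on the second cycling library, without which it was 0.30. SERPINB2, a serpin inhibitor, rose from 2.28, 1.66 and 1.07 to 7.198, 10.9 and 7.71 CPM (log2 fold change 2.32, SE 0.29, edgeR adjusted p = 3.66e-05), as did the growth factor genes FGF7 (1.76) and FGF2 (0.75). MMP1, interstitial collagenase, had the largest called fall, from 232 ± 16.9 CPM (SD, n = 3) to 23.9, 23.04 and 18.6 CPM (log2 fold change -3.4, SE 0.31, edgeR adjusted p = 2.16e-06). IGFBP5, the member with the highest CPM, had 1612, 2003 and 1902 CPM against 3117, 2998 and 3149 CPM with no overlap. It was not called (0.75, adjusted p = 0.082) except in fits without the first quiescent library (2.51e-04), on the compared groups alone (1.42e-06), with DESeq2 (0.040) and with upper quartile scaling (0.041). Without the first quiescent library 6 members of the list were called higher and 19 lower, and with only the compared groups 6 and 24.

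Irradiated cells were then compared directly with cells made senescent by etoposide, which breaks DNA by trapping topoisomerase II. This comparison shares the irradiated libraries with the first. It called 2551 genes (21.7%), 914 higher in irradiated cells (7.77%) and 1637 lower (13.9%). Without the second etoposide library 398 were higher and 1335 lower, and the number higher was 454 to 600 without any other single library but the third irradiated one. With upper quartile scaling 1307 were higher and 1575 lower. Mitosis genes had 6 called higher and 1 lower of 56, with a median of 0.29, and MKI67 stood at 0.07 (adjusted p = 0.92). Histone genes were higher in irradiated cells for 32 of 42, with none lower and a median of 0.93. Secretory phenotype genes were lower for 38 of 47 with none higher (median -2.05). IL6 had 11.6, 9.82 and 17.1 CPM in irradiated and 71.3, 39.1 and 86.4 CPM in etoposide libraries, and CXCL8 had 2.81, 4.16 and 3.14 CPM against 383, 196 and 388 CPM. Neither range overlapped.

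ER, lysosome and matrix genes also separated the inducers. Of the ER list 35 of 40 were lower in irradiated cells and 1 higher (median -1.49), as were 40 of 54 lysosome genes with 1 higher (median -1.26) and 32 of 50 matrix genes with 1 higher (median -1.09). The ER list summed to 5778, 6048 and 5493 CPM in irradiated libraries and to 14110, 14540 and 13040 CPM in etoposide libraries, beside 13250, 14520 and 14600 CPM in cycling ones. HSPA5 had 319.5, 369 and 320.1 CPM in irradiated and 1175, 1251 and 1113 CPM in etoposide libraries (-1.81, edgeR adjusted p = 8.73e-04). In the same direct comparison ATF4 was higher in irradiated cells (0.83), as was DDIT3 (1.12), and GLB1 was lower (-1.1). Among genes also changed from cycling cells, ADH1B, FMO2, H2BC13 and DEPP1 were most in excess after radiation, at 3.92, 3.01, 2.17 and 2.16. TFPI2, SLC6A15, C3 and STC1 were most in excess after etoposide, at -5.34, -4.65, -4.56 and -4.43. C3 had 245, 117 and 128 CPM after etoposide, far above its 6.496, 10.9 and 3.997 CPM in irradiated libraries. The call of H2BC13 was lost with libraries thinned to equal depth (adjusted p = 0.12). The call of SLC6A15 against cycling cells was lost without any single library but the first cycling one (adjusted p = 0.054 to 0.12). Without the first irradiated library the comparison called 1500 genes, 1046 of them lower.

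**Figure D5:**
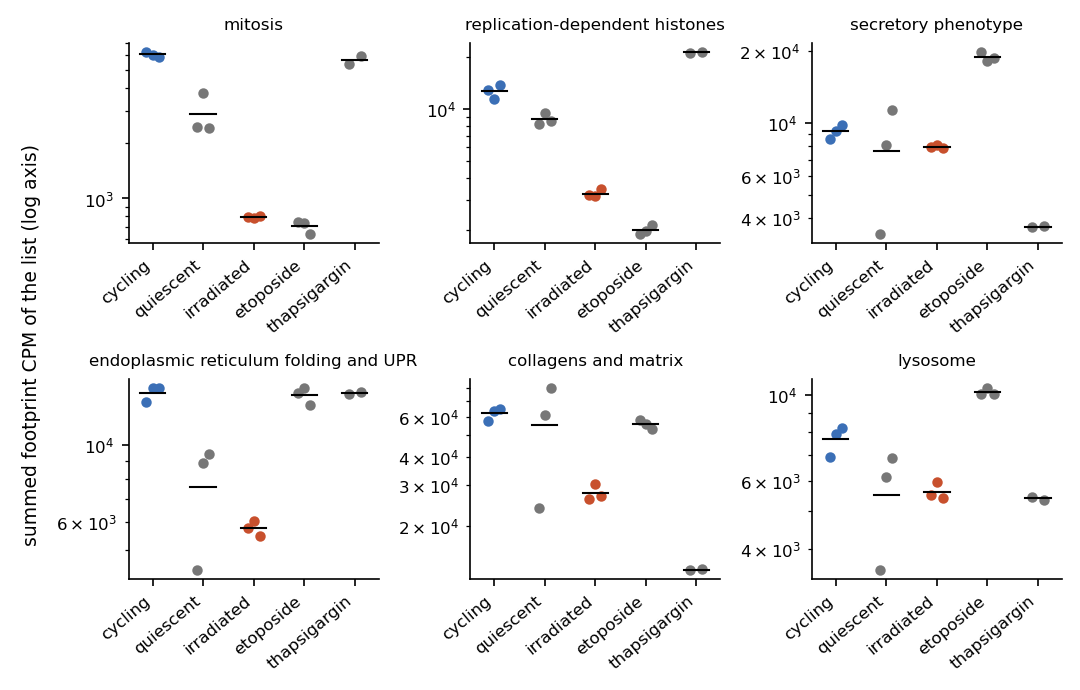
Points give the summed footprint CPM of 6 gene lists in every Ribo-seq library by state, on log axes, and lines give the means. Irradiated libraries lie near etoposide libraries for mitosis but at 5493 to 6048 CPM against 13040 to 14540 CPM for the ER list, and the first quiescent library lies below the other quiescent libraries for the ER, collagen, secretory and lysosome lists.

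Irradiated cells were also compared with quiescent cells, again with the same irradiated libraries. The test called 1710 genes (14.5%), 814 higher in irradiated cells (6.92%) and 896 lower (7.62%). This split was 826 and 1561 without the first quiescent library and 486 and 1026 with no filter on low counts, and it turned to 904 and 814 with RLE scaling. All 56 mitosis genes were lower in irradiated than in quiescent cells (median -2.17), and so were 41 of 42 histone genes (median -2.42) and 31 of 43 replication genes (median -0.89). LMNB1 had 14.1, 15.9 and 12.6 CPM in irradiated and 79.8, 112 and 84.7 CPM in quiescent libraries (-2.71, edgeR adjusted p = 1.24e-07). CDKN1A was higher than in quiescence (1.26), CDKN2A stood at -0.03 and was not called, and NRF2 genes were higher for 15 of 22 with 1 lower. Of the ER list 4 were lower and none higher (median -0.38), and of the lysosome list 5 were higher and none lower (median -0.10). Quiescent libraries were far apart for the ER list, at 4385, 8859 and 9410 CPM, and the first lay below the irradiated range. Leaving out that library raised the calls from 1710 to 2387. They fell to 994 without the second quiescent library and to 939, 1070 and 1104 without the first, the second and the third irradiated one.

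The largest differences from quiescence among genes also changed from cycling cells ran both ways. DIRAS2, HSD17B2, CCND2 and NSG1 were higher in irradiated cells by 3.35, 3.02, 3.01 and 2.5 on the log2 scale. CCND2, with 191, 206 and 193 CPM in irradiated libraries, had 27.4, 22.9 and 22.8 CPM in quiescent ones. H2AC14, GABRB1, H2BC14 and H3C12 were lower, at -4.38, -4.24, -4.03 and -3.74. The groups of CCND2 did not overlap.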

How the data were processed

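Total counts per gene had been made by the authors with STAR 2.7.10b on hg38, per the submitters' processing notes, and were deposited as counts that are not normalized. The annotation is not given in the sources used here. The column for reads on the gene's strand was used (forward for Ribo-seq, reverse for RNA-seq). Per the labels' protocols, footprints of 25 to 40 bases were selected on a gel. Reads mapping to several places, and reads assigned to no gene, are in no gene's count and stayed out of the tests. Multi-mapped reads made up 26.5 to 31.9% of cycling and 23.0 to 27.1% of irradiated Ribo-seq libraries.

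RNA-seq and thapsigargin Ribo-seq files list 62703 gene IDs each and the other Ribo-seq files 60664. Whether this difference affects the comparison of footprints with mRNA was not tested. Of 60534 Ensembl IDs shared by the files, 19307 were protein-coding by symbol in RefSeq. Genes with enough counts (filterByExpr) were scaled by TMM and fitted with edgeR 4.0.16 (R 4.3.3, robust quasi-likelihood) over all 14 Ribo-seq libraries and 5 states, or all 27 libraries for translational efficiency. Calls have a Benjamini-Hochberg adjusted p below 0.05. SE is the log2 fold change over the root of F. CPM in the text scales the deposited counts to the library's total over the genes tested for that library type, times its TMM factor. The CPM of mitochondrial-genome genes are instead scaled to the total over all gene types, with no TMM factor. Low pooled counts have 95% exact intervals, which cover counting error only. The scripts were tested on simulated data with 66 or 67 changed genes of each size. Of log2 changes of 0.5, 1 and 2, the footprint test recovered 10.4%, 76.1% and 97%. The test of translational efficiency recovered 0%, 26.9% and 92.4%. Far fewer genes were changed there than were called here, so these shares need not hold for the real data. Small changes that were not called are therefore not shown to be absent.

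Genes were named by rule: the 8 highest and 8 lowest called changes with at least 5 CPM and separated groups, the extreme called members and the member of each list with the highest CPM, 12 fixed genes, and the 4 extremes on either side of the other comparisons. The gene lists and members were chosen with earlier results of these data known. Alternatives covered scaling, filters, DESeq2 1.42.0, strand, depth, samples in the fit, a replicate block and leaving out each library. Genes named beyond the rule were chosen after their values were seen; several list members whose call was lost when a single library was left out were not named, so the named examples lean towards stable calls while the list counts include every tested member. Some genes are not reported here.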

Additional observations from a re-analysis of the deposited data

Results flagged for a closer look

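The effect of irradiation on footprints was set beside that of the other states by direct tests. Only the 12 fixed genes and the genes named for their extremes in that comparison were considered. Those whose difference passed edgeR's adjusted p of 0.05 are given as log2 differences. The list is not complete, since genes named for other reasons passed as well. Examples are CRYAB, higher than in etoposide cells (1.03) and quiescent cells (1.74), and CALR, lower than in etoposide cells (-1.57). Against etoposide, ADH1B (3.92), FMO2 (3.01), H2BC13 (2.17), DEPP1 (2.16), DDIT3 (1.12), ATF4 (0.831) and HMGB2 (0.732) were higher in irradiated cells. CXCL8 (-6.63), TFPI2 (-5.34), SLC6A15 (-4.65), C3 (-4.56), STC1 (-4.43), IL6 (-2.35), HSPA5 (-1.81), GLB1 (-1.1) and CDKN1A (-0.382) were lower. The call of CDKN1A was lost on leaving out any single library of either group (adjusted p = 0.052 to 0.14), and that of HMGB2 without the first irradiated library (0.063).

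Against quiescent cells, DIRAS2 (3.35), HSD17B2 (3.02), CCND2 (3.01), NSG1 (2.5) and CDKN1A (1.26) were higher in irradiated cells. H2AC14 (-4.38), GABRB1 (-4.24), H2BC14 (-4.03), H3C12 (-3.74), MKI67 (-3.07), LMNB1 (-2.71), HMGB2 (-1.7) and HSPA5 (-0.93) were lower. The call of HSPA5 was lost without the second or the third quiescent library and without any 1 of the irradiated libraries (adjusted p = 0.075 to 0.13). The first quiescent library, which stood apart, had the lowest sum of the ER list to which HSPA5 belongs, 4385 CPM against 8859 and 9410 CPM. Without that library HSPA5 stood at -1.28 and was still called.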

How the results depend on the processing

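Against cycling cells, no alternative moved the 4684 calls by more than 1.5 times. They ranged from 3641 to 4018 when single libraries were left out and stood at 5015 (2650 higher) with upper quartile scaling, 5440 with DESeq2, 6254 with only the compared groups and 4727 with the replicate block. Deviations of same-numbered libraries correlated at -0.09, 0.01 and 0.15 between cycling and irradiated cells, 0.03, 0.06 and 0.01 between irradiated and etoposide cells and 0.08, 0.1 and 0.15 between irradiated and quiescent cells (mean of unpaired libraries -0.05). The numbers were not taken to pair the samples in these comparisons, since not every pair was above 0.1. Cycling and quiescent libraries, which are not compared here, correlated at 0.15, 0.27 and 0.26. The block gave 2566 calls against etoposide, 1631 against quiescent cells and 4 for translational efficiency. Against etoposide, 4134 genes were called with only the compared groups and 1500 to 1986 with single libraries left out. Against quiescent cells, leaving out single libraries gave 939 to 2387 calls. Translational efficiency had 32 calls with DESeq2, 728 with only the compared groups, 13 without thapsigargin, 1 to 7 with single libraries left out, and, in alternatives chosen after seeing the data, 36 without the first quiescent Ribo-seq library and 72 without all quiescent libraries. The cause of these differences was not tested.

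Signs turned for some genes, most of them near 0. The exceptions are CXCL8, whose sign rested on the second cycling library, and IL6 against quiescent cells, which rested on the first quiescent one. ACTB against cycling cells was -0.01, but 0.085 with upper quartile scaling, 0.041 with RLE scaling, 0.041 with DESeq2, 0.028 with only the compared groups, 0.035 with equal depth, -0.104 to 0.075 with single libraries left out. HSP90AA1 against cycling cells was -0.001, but 0.092 with upper quartile scaling, 0.05 with RLE scaling, 0.05 with DESeq2, 0.037 with only the compared groups, 0.062 with equal depth, -0.045 to 0.098 with single libraries left out. LMNA against cycling cells was -0.058, but 0.036 with upper quartile scaling, -0.108 to 0.052 with single libraries left out. CDKN2A against etoposide cells was -0.064, but 0.007 with upper quartile scaling, -0.187 to 0.073 with single libraries left out. PPP1R15A against etoposide cells was 0.026, but -0.003 with only the compared groups, -0.128 to 0.166 with single libraries left out. CDKN2A against quiescent cells was -0.031, but 0.019 with equal depth, -0.174 to 0.235 with single libraries left out. CXCL8 against cycling cells was -1.64, but -2.07 to 0.298 with single libraries left out. IL6 against quiescent cells was 0.257, but -0.151 to 0.614 with single libraries left out. GLB1 against quiescent cells was -0.101, but -0.318 to 0.052 with single libraries left out. MKI67 against etoposide cells was 0.065, but -0.102 to 0.262 with single libraries left out. The cause was not tested. Depth limits what could be called: the shallowest irradiated library had 2652013 counts, and thinning all libraries to equal depth left 3687 calls.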

Other observations

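Gene families outside the lists were gathered by symbol after values of the study had been seen, so their counts are descriptions with no test of the family. Solute carriers, the membrane transporters of nutrients and ions, were mostly lower after irradiation: of 208 tested, 125 were called lower and 9 higher. Their median log2 fold change was -1.26 in footprints and -0.52 in mRNA, against -0.006 and 0.026 over all genes. Of all genes tested, 22.6% were called lower and 17.2% higher. In the comparison with etoposide cells, which shares the irradiated libraries, 102 solute carriers were lower and 1 higher. There 13.9% of all genes were lower and 7.77% higher. Genes named TMEM, which encode transmembrane proteins, had 82 of 153 called lower and 7 higher, with medians of -0.96 in footprints and -0.48 in mRNA. Semaphorins and plexins, ligands and receptors of guidance signalling, had 12 of 24 lower and 1 higher, and integrins, the receptors for matrix, 8 of 14 lower and none higher.

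The vacuolar ATPase, the proton pump of lysosomes, differed by sector. Of 9 cytosolic V1 subunits 7 were called higher and none lower (median 0.79), while of 9 membrane V0 and accessory genes 5 were lower and 1 higher (median -0.92). The mRNA medians were 0.83 and -0.26. RAB GTPases, which direct vesicle traffic from the cytosolic face of membranes, had 18 of 50 called higher and 1 lower (median 0.33). Nucleoporins had 13 of 20 lower and none higher (median -0.43). Mitochondrial ribosomal proteins had 18 of 75 lower and 2 higher (median -0.07), so the share called lower was near that of all genes. Of all genes tested, 22.6% were called lower and 17.2% higher.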
